A study of Mus musculus with 8 samples.

Results

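The regions described here are the widest H3K9me3 peaks that were called in mesenchymal stem cells without Kdm4b and had no counterpart in cells with the gene. They were taken from the knockout (KO) list as autosomal peaks of 800 bp or more that shared no bp with any wild-type (WT) H3K9me3 peak. This left 692 of the 55306 KO peaks, or 1.25%. Chromatin immunoprecipitation sequencing (ChIP-seq) had been carried out on primary bone marrow stem cells of mice of 2 genotypes. The KO was Prx1Cre; Kdm4bf/f and the WT was Prx1Cre; Kdm4bw/w, so both carried the Cre transgene and only the KO carried the floxed gene. Prx1 drives Cre in limb mesenchyme, and cells of another origin keep Kdm4b. All cells were in osteogenic induction for 4 h. The labels also list DTBP at 10 mM for every library. The lists used were H3K9me3, KDM4B and total histone H3, each from 1 WT and 1 KO library, and the genotype of the KDM4B libraries is given by their titles alone. The labels used here give no age of the mice and no number of animals per library.

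KDM4B is a demethylase that removes methyl groups from trimethylated lysine 9 of histone H3. The trimethyl mark, H3K9me3, is written by enzymes such as SETDB1 and SUV39H1, is read by HP1 proteins and is found on silent chromatin, in particular satellite and transposon repeats. In mesenchymal stem cells KDM4B is known for acting at genes of bone formation. The comparison therefore asks whether H3K9me3 seen only without KDM4B lay where KDM4B was bound in WT cells.

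With 1 library per group, no difference between genotypes was tested. Intervals are 95% exact intervals, binomial (Clopper-Pearson) for shares and Poisson for numbers per Mb. They cover counting error only and take no account of neighbouring peaks being alike. The depth of the H3K9me3 and KDM4B libraries is unknown, and their lists give positions without heights or scores. The WT H3K9me3 list held 943 peaks, and 99.4% of the autosomal KO peaks were absent from it. The regions were chosen by their width in KO and their absence from WT, so values of either are given as a description. Positions are in mouse build mm9 and are 1-based. No gene annotation or genome of that build was used here, so regions are named by position.

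The wide knockout-only peaks were mostly short of 1 kb. Widths ran from 800 to 2765 bp with a median of 914 bp. Of the 692 peaks, 482 were under 1 kb, 210 were 1 kb or more, 10 were 1500 bp or more and 4 were 2 kb or more. They made up 1.26% of the knockout-only autosomal peaks and 4.02% of the sequence those covered, 0.670 Mb. The limit of 800 bp fell in a continuous range. The peaks just inside it, each 800 bp wide, were chr2:164610915-164611714, chr2:167797700-167798499 and chr3:41368603-41369402. Those just outside, each 799 bp wide, were chr2:131317615-131318413, chr11:75546244-75547042 and chr17:34807708-34808506. Of the 768 autosomal KO peaks at or above the limit (1.39% of autosomal KO peaks), 692 had no WT counterpart and 76 had one.

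The widest single peak was chr1:90172316-90175080, with 2.77 kb. It enclosed a KDM4B peak of WT cells from 90173447 to 90174316, which covered 31.5% of it. This peak lay among H3K9me3 peaks of both genotypes: within 10 kb there were 12 other KO peaks and 11 WT peaks, the nearest WT peak 1.92 kb away. A pair of further wide knockout-only peaks, chr1:90169433-90170796 and chr1:90171081-90172239, stood directly beside it, so that 3 of the 692 came from the same stretch. WT peaks lay on both sides of these 3 and none lay between them.

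The second widest, chr1:165243588-165246174 with 2.59 kb, had quite other surroundings. Only 1 further KO peak lay within 10 kb. The nearest KDM4B peak was 28.8 kb away and the nearest WT H3K9me3 peak 7.63 Mb away. The fourth widest, chr19:7496212-7498300 with 2.09 kb, was likewise far from KDM4B, at 39.2 kb, and stood at the end of a row of 5 other KO peaks within 10 kb. These were wide H3K9me3 regions with neither KDM4B nor WT H3K9me3 nearby.

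The third widest, chr15:76011234-76013592 with 2.36 kb, lay in the most crowded KDM4B surroundings of any of the 692. It overlapped 4 KDM4B peaks, which together covered 84.9% of it, and 21 KDM4B peaks lay within 10 kb. Another 16 KO H3K9me3 peaks lay in the same distance, and so did 4 WT peaks, the nearest 965 bp away. It was the only wide knockout-only peak within 1 kb of a WT peak.

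**Figure D1:**
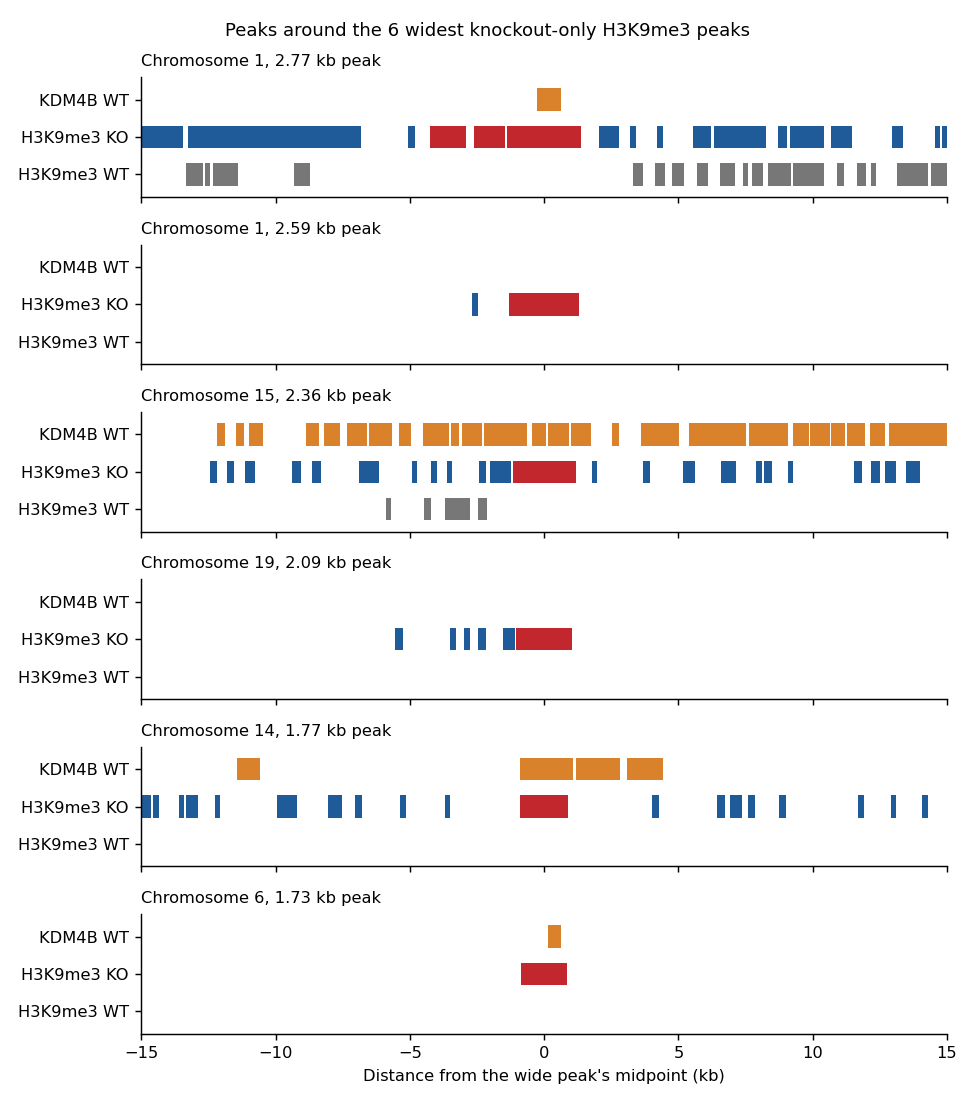
Peaks within 15 kb of the midpoints of the 6 widest knockout-only H3K9me3 peaks, by distance in kb, for KDM4B in WT (top row of each panel), H3K9me3 in KO (middle) and H3K9me3 in WT (bottom). Each box is 1 called peak, and wide knockout-only peaks are drawn in red, 3 of them in the first panel. The 2.77 kb and 2.36 kb peaks have WT H3K9me3 peaks beside them, the 2.59 kb and 2.09 kb peaks have no peak of either WT list in view, and the 1.73 kb peak stands alone over 1 KDM4B peak.

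Among the next widest, chr14:69901866-69903633 (1.77 kb) lay wholly inside a KDM4B peak of 1.97 kb from 69901858 to 69903823, so the borders of both peaks differed little on the lower side. chr13:58502998-58504707 (1.71 kb) was also enclosed by a KDM4B peak, one of 2.73 kb from 58501999 to 58504727, and had no other KO peak within 10 kb. chr6:65621207-65622933 (1.73 kb) instead enclosed a smaller KDM4B peak of 513 bp. Its nearest KO neighbour lay 289772 bp away, and its nearest WT H3K9me3 peak 1.99 Mb away. chr14:122874373-122876081 (1.71 kb) overlapped 3 KDM4B peaks, with 11 within 10 kb, and chr13:63664321-63665899 (1.58 kb) also overlapped 3. chr15:81524022-81525638 (1.62 kb) overlapped 1, which covered 25.2% of it. The list of the 10 widest at KDM4B was completed by chr1:182743048-182744494 (1.45 kb, 93.6% covered) and chr10:13193117-13194555 (1.44 kb, 33.4% covered). Of the 15 widest peaks in all, 9 overlapped KDM4B, and of the 50 widest, 22 did, against 285 of the 692 and 15.8% of all autosomal KO peaks.

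The other 4 of the 15 widest divided again by distance from KDM4B. chr11:33046764-33048243 and chr2:38206682-38208121 lay 903 and 178 bp from a KDM4B peak, and the latter had 7 KDM4B peaks within 10 kb. chr2:155890912-155892398 lay 56.8 kb from one and chr11:120147310-120148777 lay 28.8 kb from one. That last peak was part of the longest run of KO peaks to hold any of the 692, with 10 peaks spaced by 1 kb or less from 120141819 to 120151564, or 9.75 kb, and no KDM4B peak or WT H3K9me3 peak.

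WT KDM4B peaks met the wide knockout-only peaks more often than H3K9me3 peaks of KO cells in general. Of the 692, 285 shared bp with a KDM4B peak, or 41.2% (37.5 to 45.0%), against 15.8% of all autosomal KO peaks. A KDM4B peak lay within 5 kb of 354, or 51.2% (47.4 to 54.9%), against 31.6% of all autosomal KO peaks. Since a wide peak has more room to overlap, the midpoints were also compared: 208 of the 692 midpoints, or 30.1% (26.7 to 33.6%), lay in a KDM4B peak, against 13.1% of all. The interval stays above the background share on each of the 3 measures, but no test of the difference was run.

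The overlap rose with width over the whole knockout-only list and not only at 800 bp. It was 9.50% (8.96 to 10.0%) for the 11469 peaks of the smallest width, 199 bp. It was 13.1% at 200 to 299 bp, 18.0% at 300 to 399 bp, 25.8% at 400 to 599 bp and 33.5% (31.3 to 35.8%) at 600 to 799 bp. The wide peaks continued this order, with 40.2% (35.8 to 44.8%) at 800 to 999 bp and 43.3% (36.5 to 50.3%) above that, whose intervals overlap. By midpoint the share rose from 8.25% at 199 bp to 26.8% (24.8 to 29.0%) at 600 to 799 bp. It was 30.7% (26.6 to 35.0%) at 800 to 999 bp and 28.6% (22.6 to 35.2%) at 1 kb or more, so beyond 600 bp the midpoint shares did not differ beyond their intervals.

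**Figure D2:**
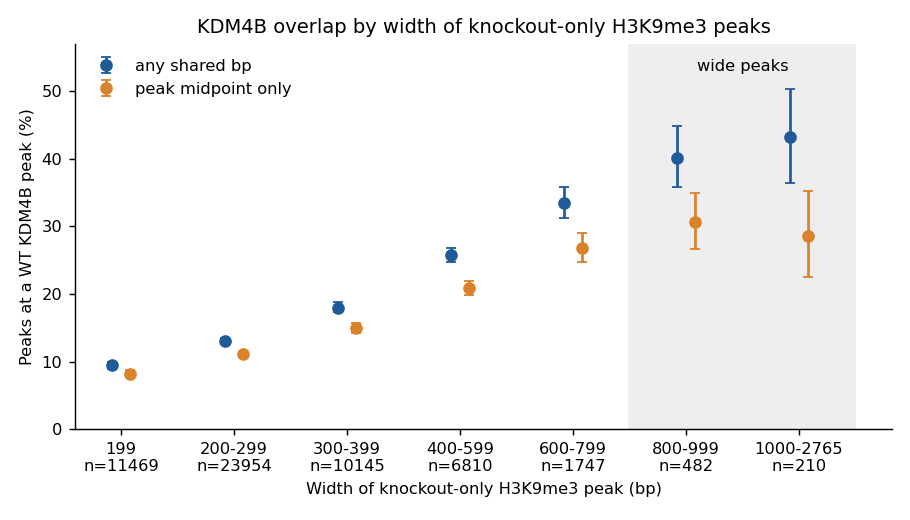
Share of knockout-only autosomal H3K9me3 peaks at a WT KDM4B peak, in percent, by peak width in bp, counting any shared bp (blue) or the peak midpoint only (orange). Bars are 95% exact binomial intervals, n is the number of peaks and the shaded classes are the wide peaks. Both measures rise from left to right up to 600 to 799 bp, and the midpoint intervals overlap after that.

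KO peaks of 800 bp or more that were shared with WT cells met KDM4B less often. They were not matched in width to the 692: their median was 1.37 kb and the widest was 19.6 kb, and 12 of the 76 were wider than any of the 692. Of the 76, 2 overlapped KDM4B, or 2.63% (0.320 to 9.18%), and 0 had a midpoint in a KDM4B peak, where 3 counts would be 3.95%. Both that overlapped were among the 64 no wider than the widest of the 692. A KDM4B peak lay within 5 kb of 11.8% of them (5.56 to 21.3%). The shared wide peaks were also near the peaks of the KO KDM4B list and the H3 lists: 18 of the 76, or 23.7% (14.7 to 34.8%), lay within 10 kb of a KDM4B peak of KO cells or an H3 peak. Of the 692 knockout-only wide peaks 2 did, or 0.289% (0.0350 to 1.04%), against 0.125% of all autosomal KO peaks, a share that includes the peaks shared with WT. Among knockout-only peaks under 800 bp the share was lower, at 0.0185% (0.00886 to 0.0340%).

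Those 2 were both next to H3 and not to KDM4B of KO cells. chr2:22599772-22600593 (822 bp) enclosed an H3 peak of KO cells from 22600363 to 22600437, and chr4:118220493-118221401 (909 bp) lay 175 bp from an H3 peak of WT cells. None of the 692 was within 10 kb of any of the 35 peaks that the KDM4B antibody gave in KO cells. The share was 0.0870% of all autosomal KO peaks, which include those shared with WT, and 0.00739% of knockout-only peaks under 800 bp. At this number of regions, 3 counts would be 0.434%. Both shares are below that, so the 0 does not set the wide peaks apart.

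The median of the 285 wide peaks at KDM4B had 74.5% of its length inside KDM4B peaks, and 222, or 77.9%, had at least 50%. Narrower knockout-only peaks at KDM4B, which are more easily enclosed, had a median of 100% and 84.3% of them at least 50%. Of the 285 wide peaks, 221 met a single KDM4B peak, 61 met 2 and 3 met more than 2. Of the 8403 narrower peaks at KDM4B, 8081 met a single KDM4B peak, 322 met 2 and 0 met more. A wide peak has more room to meet several. A KDM4B peak enclosed the wide H3K9me3 peak entirely in 79 cases (27.7%, against 56.2% of the narrower peaks at KDM4B). The H3K9me3 peak enclosed a KDM4B peak in 72 (25.3%, against 2.15%), which a wider peak does more easily. The overlap was partial in 134 (47.0%, against 41.7%). The midpoints of both peaks were a median of 319 bp apart.

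KDM4B peaks under the wide H3K9me3 peaks were themselves wide. The widest KDM4B partner had a median width of 1068 bp, against 509 bp for all 31556 autosomal KDM4B peaks, and 944 bp for the partners of narrower knockout-only peaks. A longer KDM4B peak is met more often by any list. Seen from KDM4B, 0.439% (0.287 to 0.642%) of peaks under 300 bp met a wide knockout-only peak, 1.90% (1.53 to 2.33%) of those from 1 kb to under 2 kb did, and 5.71% (3.99 to 7.89%) of those of 3 kb or more did. Narrower knockout-only peaks gave 10.9, 37.1 and 69.2% in the same classes. The largest partner, 15.7 kb, lay on chr7:149558383-149574049 and covered 14.0% of chr7:149557575-149558514. That region was singled out after its values were seen.

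**Figure D3:**
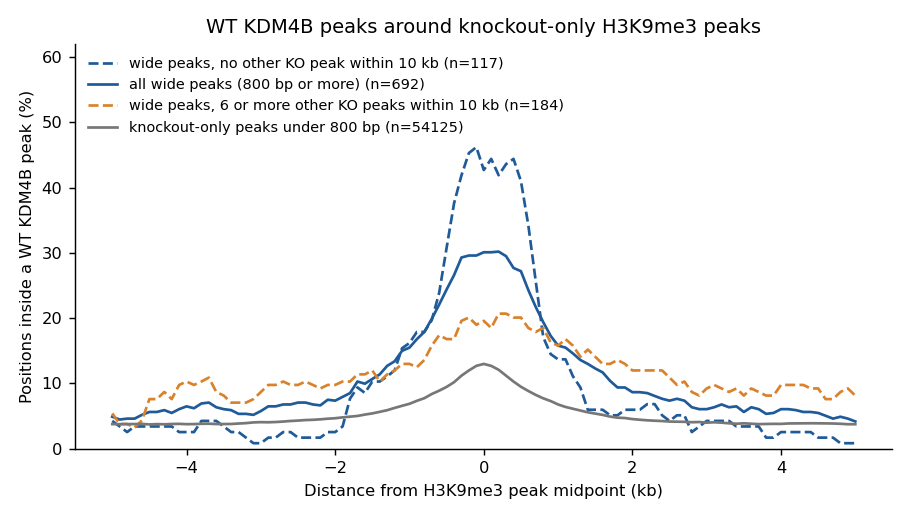
Percent of positions inside a WT KDM4B peak at each distance in kb from the H3K9me3 peak midpoint, in steps of 100 bp, for all wide knockout-only peaks, those with 0 and those with 6 or more other KO peaks within 10 kb, and knockout-only peaks under 800 bp. All wide peaks reach 30.1% at the midpoint against 13.0% for the narrower peaks, the peaks standing alone reach 42.7% and the crowded ones 19.6%.

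KDM4B peaks, where present, were most frequent over the wide peaks and fell off beyond their edges, as they did around narrower ones. Of the 692, 407 shared no bp with a KDM4B peak. At the midpoint 30.1% of the 692 positions were inside a KDM4B peak, at 1 kb on the lower and higher coordinate side 15.5 and 15.8%, and at 5 kb 4.91 and 4.19%. Around narrower knockout-only peaks the values were 13.0% at the midpoint, 6.89 and 6.79% at 1 kb and 3.78 and 3.76% at 5 kb. The profiles thus came close to each other 5 kb out and differed most over the peak.

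Not all wide peaks had KDM4B in their surroundings, though fewer were far from it than of KO peaks in general. The nearest KDM4B peak lay more than 10 kb away for 294 of the 692, or 42.5% (38.8 to 46.3%), against 59.5% of all autosomal KO peaks. It lay more than 100 kb away for 68, or 9.83% (7.71 to 12.3%), against 15.5% of all. These differences were not tested. The farthest, chr6:63207156-63207967, was 1.78 Mb from KDM4B and was also singled out after its values were seen. Peaks at KDM4B and peaks away from it were of similar size, with median widths of 921 and 903 bp.

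Whether a wide peak met KDM4B went with how many other KO peaks surrounded it. Of the 117 wide peaks with no other KO peak within 10 kb, 72 overlapped KDM4B, or 61.5% (52.1 to 70.4%). The share was 47.4% (40.1 to 54.7%) with 1 to 2 other peaks, 36.8% (30.1 to 43.9%) with 3 to 5 and 25.0% (18.3 to 32.7%) with 6 to 10. With 11 or more it was 34.4% (18.6 to 53.2%), from 32 peaks. Peaks standing alone thus met KDM4B more often than those in groups of 3 to 10, and their intervals do not overlap. The same order appeared in knockout-only peaks of 600 to 799 bp, which the width limit left out, with 46.6% (41.4 to 52.0%) at 0 and 20.0% (15.9 to 24.6%) at 6 to 10. Over all knockout-only peaks under 800 bp the share was 16.8% at 0 and 12.5% at 6 to 10, a much smaller range.

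**Figure D4:**
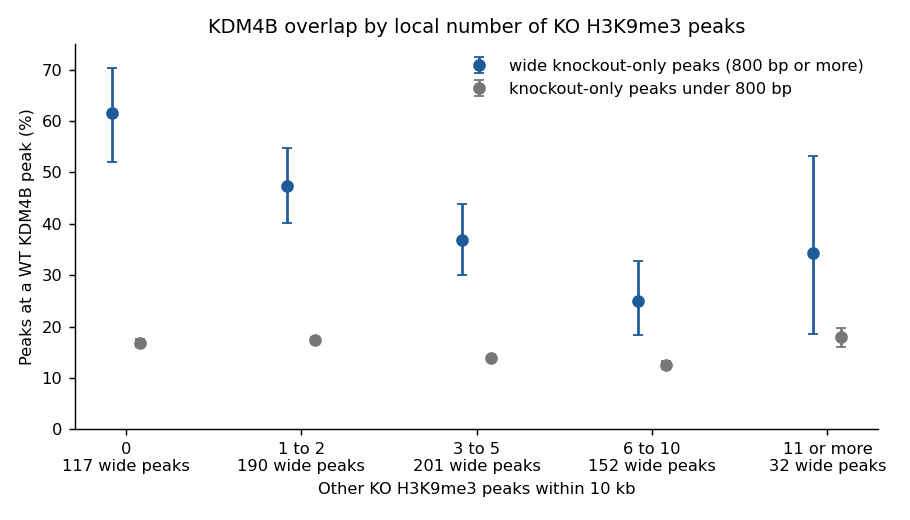
Share of H3K9me3 peaks at a WT KDM4B peak, in percent, by the number of other KO H3K9me3 peaks within 10 kb, for wide knockout-only peaks (blue) and those under 800 bp (grey). Bars are 95% exact binomial intervals. The blue points fall from 61.5% to 25.0% over the first 4 classes, and the grey points stay between 12.5 and 17.9%.

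On the scale of 1 Mb windows the order was alike. The 60 wide peaks in windows of up to 10 autosomal KO peaks overlapped KDM4B in 58.3% of cases (44.9 to 70.9%). For the 258 in windows of more than 100 it was 31.8% (26.1 to 37.8%), against 15.8% of all autosomal KO peaks in any window. The share of narrower peaks at KDM4B was not computed by window class. Whether this order was particular to the wide peaks is therefore unknown. Wide peaks were about as frequent among knockout-only peaks in both kinds of window, at 1.42% (1.09 to 1.83%) in the sparse and 1.39% (1.22 to 1.56%) in the dense windows, and at 1.14 and 1.20% in the classes between.

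Most wide peaks had company close by. Another KO H3K9me3 peak lay within 1 kb of 374 of the 692, or 54.0% (50.3 to 57.8%), against 39.6% of all autosomal KO peaks. This was not particular to them. Among knockout-only peaks of 600 to 799 bp the share was 50.5% (48.2 to 52.9%). Among the 76 wide peaks shared with WT it was 81.6% (71.0 to 89.5%). Of the 692, 159 (23.0%) had another KO peak within 200 bp, against 13.8% of knockout-only peaks under 800 bp. No gap was under 51 bp, in wide or in narrower peaks. The median wide peak had 3 others within 10 kb, and narrower ones had 2. Joining KO peaks spaced by 1 kb or less placed the 692 in 677 regions with a median width of 1.29 kb. Of these regions, 663 held 1 wide peak, 13 held 2 and the chromosome 1 region described above held 3. The most crowded wide peaks, each with 16 others within 10 kb, were chr8:123095944-123096852, chr15:76011234-76013592 and chr15:98682641-98683691. They were followed by chr10:80767143-80767959 and chr10:80775667-80776728, with 15 each. The chromosome 8 peak was 30.7% covered by KDM4B, and chr15:98682641-98683691 lay 8.15 kb from any KDM4B peak.

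WT H3K9me3 was far from nearly all of the 692, as it was from narrower knockout-only peaks. The nearest WT peak lay at a median of 1.88 Mb, and 455, or 65.8%, were more than 1 Mb from one. For knockout-only peaks under 800 bp the values were 1.67 Mb and 63.2%. Only 10, or 1.45% (0.695 to 2.64%), had a WT peak within 10 kb, against 1.29% of all autosomal KO peaks, a share that includes the peaks shared with WT. Among knockout-only peaks under 800 bp the share was 0.663% (0.597 to 0.735%). Besides the 3 on chromosome 1 and the one on chromosome 15, these were chr11:33100340-33101715, chr14:69954798-69955744, chr14:70032459-70033361, chr19:44830702-44831707, chr10:80654681-80655672 and chr4:40894783-40895620. The chromosome 11 peak lay wholly inside a KDM4B peak of 3.59 kb. The 682 others overlapped KDM4B in 40.9% of cases.

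Wide knockout-only peaks were found on all 19 autosomes, at 0.288 per Mb overall. By number, chromosome 11 had the most with 69, followed by chromosome 2 with 61 and chromosome 4 with 56. Per Mb, chromosome 11 was highest with 0.581 (0.452 to 0.735), followed by chromosome 17 with 0.531 (0.393 to 0.703), and these intervals overlap. Chromosome 16 was sparsest, with 11 peaks or 0.116 per Mb (0.0578 to 0.207). Relative to the knockout-only peaks of the same chromosome, the range was narrower. Wide peaks were 0.811% (0.405 to 1.45%) of them on chromosome 16, 1.32% (1.03 to 1.66%) on chromosome 11 and 2.40% (1.68 to 3.32%) on chromosome 13. Chromosome 13 also had the highest share at KDM4B, 20 of 35 peaks or 57.1% (39.4 to 73.7%), against 18.3% of all its KO peaks. Chromosome 11 had the lowest, 22 of 69 or 31.9% (21.2 to 44.2%), against 16.0%. The intervals of these chromosomes overlap. On each of the 19 chromosomes the share at KDM4B was above that of all KO peaks of the chromosome, which ran from 12.1% on chromosome 4 to 22.6% on chromosome 3. On chromosome 19 the interval, 18.8 to 59.4%, included the share of all KO peaks, 21.1%.

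**Figure D5:**
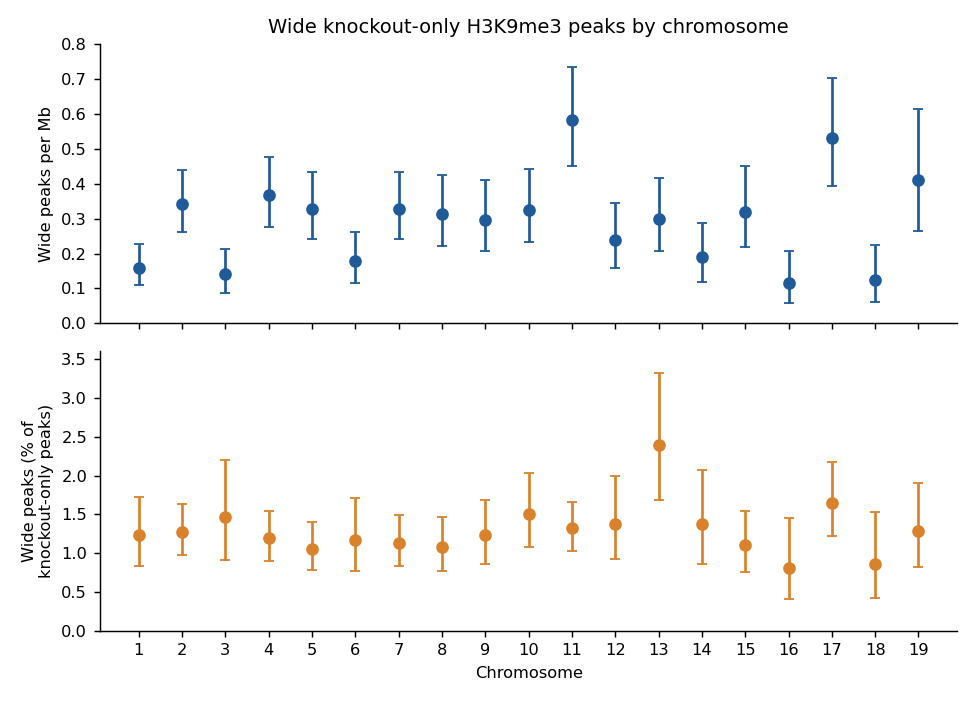
Wide knockout-only H3K9me3 peaks per Mb (top, with 95% exact Poisson intervals) and as a percent of the knockout-only peaks of the chromosome (bottom, with 95% exact binomial intervals), by autosome. Chromosomes 11 and 17 stand highest in the top panel, at 0.581 and 0.531 per Mb, and chromosome 13 in the bottom panel, at 2.40%.

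The wide peaks occupied 440 of the 2040 autosomal windows of 1 Mb that held a KO peak, and 295 of them were alone in their window. The 54 windows with 3 or more held 215 of them, or 31.1%. The largest numbers were in neighbouring windows on chromosome 10, with 15 from 80000001 to 81000000 and 10 from 79000001 to 80000000, which were also the windows with the most KO peaks, 406 and 388. KDM4B was met by 6 of the 15 and 4 of the 10. The third was on chromosome 11 from 120000001 to 121000000, with 8 wide peaks among 170 KO peaks, of which 2 met KDM4B. Windows with 6 followed on chromosome 8 from 73000001 and chromosome 17 from 56000001. Windows with 5 lay on chromosome 4 from 151000001, chromosome 7 from 148000001 and chromosome 17 from 24000001, 27000001 and 34000001. On chromosome 17, the first of these held 47 KDM4B peaks, and 0 of its 5 wide peaks met KDM4B. The last held 79 KDM4B peaks, and 4 of its 5 wide peaks did. With so few wide peaks per window, the windows were not compared. The share of all KO peaks at KDM4B was not computed by window. The other 44 windows with 3 or more wide peaks held 3 or 4.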

How the data were processed

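The tools listed are Bowtie, SAMtools and the peak callers MACS (KDM4B) or MACS2 (H3K9me3 and H3), per the submitters' processing notes, which list mm9 and hg19. Versions, thresholds, controls and the use of the yeast spike-in were not given in the sources used here. Part of this is known for the H3 WT table, which came from MACS2 2.1.4 at a q-value threshold of 0.05, per the file headers. The deposited lists hold peak positions, and no other deposited value was used. A peak's width depends on these unknown settings and on depth. The series names 2 sequencers and KDM4B antibodies from 2 suppliers and assigns libraries to neither. After filtering, the H3 WT library held 40420466 tags.

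On 9 of 21 chromosomes, peaks lay past all genes listed for GRCm38.p6, which by itself does not tell builds apart. That gene table was not used because the positions are in mm9. The planned description by gene and by sequence was therefore not run.

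Overlap meant at least 1 shared bp. Distances are gaps between peak ends. A chromosome's length was taken from its outermost peaks over all 6 lists. Analyses used Python 3.11.15, numpy 2.4.6 and scipy 1.17.1. The functions were tested on simulated data, and overlap counts were the same as those of bedtools 2.31.1 in 5 of 5 comparisons.

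The regions named are the 15 widest, the 10 widest at KDM4B, the one with the most KDM4B peaks and the 5 with the most KO peaks within 10 kb, those at the width limit, those near H3 or KO KDM4B peaks, and windows of 3 or more (those of 3 or 4 by count). The members, classes and regions were chosen with earlier results of these data known. The regions near WT peaks were named after their values were seen.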

Additional observations from a re-analysis of the deposited data

Results flagged for a closer look

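The autosomal rule left out 6 knockout-only peaks of 800 bp or more, of which 2 were mitochondrial. Mitochondrial DNA is not wrapped on histones. These 2 spanned 4.92 and 4.76 kb, both wider than any of the 692 autosomal peaks, and the WT H3K9me3 library had 0 peaks there. They lay outside the autosomal rule but met its limits of width and absence from WT in the same KO library. What gave rise to them, and whether it also bears on the 692, was not tested. The other 4 lay on the X chromosome between 166409654 and 166420209.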

How the results depend on the processing

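Each group had 1 library, depth is unknown for 5 of the 6 lists, and width depends on peak calling, so neither the number of wide peaks nor their absence from WT can be given an error between replicates. The number of regions moved most: 692 became 2439 with a minimum of 600 bp, 210 with 1000 bp and 7270 with peaks merged within 1 kb. The share at KDM4B, 41.2%, was 35.7% at 600 bp, 27.4% after merging, 30.1% by midpoint and 61.5% for peaks with no other KO peak within 10 kb, a subset chosen after seeing the data. The share within 5 kb of KDM4B, 51.2%, was 40.2% after merging, 41.0% with KDM4B peaks of 500 bp or more and 63.2% for the same subset. The share within 10 kb of WT H3K9me3, 1.45%, was 2.86% at 1000 bp and 0.550% after merging, and the share with a KO neighbour within 1 kb, 54.0%, was 50% at 1000 bp. The other 17 of 30 alternatives kept the count within 1.5 times or the share within its interval. After merging, no neighbour within 1 kb can remain, so that share was not computed. Of all autosomal KO peaks, 15.8% shared bp with KDM4B and 13.1% had their midpoint in it. Background shares were not computed for merged peaks or for KDM4B peaks of 500 bp or more. Whether the wide peaks stand above the background under those settings is therefore unknown. The alternatives on gene starts were not run, as no annotation of the build was used. No paired analysis was possible because each group has 1 library.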
